A study of Mus musculus with 16 samples.

Results

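The 38 genes described here belong to the unfolded protein response and the integrated stress response. They were taken as a list of gene symbols, and all 38 of 38 were found among the 50559 symbols of the liver RNA table and were among the 18335 genes tested. They fell into 4 roles, with 14 chaperones and foldases of the endoplasmic reticulum (ER), 6 genes of ER-associated degradation (ERAD), 5 sensors and transcription factors, and 13 targets of the transcription factor ATF4. The RNA came from livers of 16 male C57BL/6J mice, with 4 mice in each of 4 groups. Mice were placed on their diet at 6 weeks of age and stayed on it for 10 weeks, with treatment over the last 4 weeks. The LFD group ate a control diet that the methods name low fat and the labels name chow, and the HFD group ate a high-fat diet. In both, the mice were given control siRNA against luciferase (10 mg/kg, every 2 weeks) and gavaged with methylcellulose. Mice of the HFD + siRNA group ate the high-fat diet, were given 20 mg/kg of an siRNA against ketohexokinase (KHK) at the same interval and were gavaged with methylcellulose. This siRNA carries a GalNAc group, which directs it to hepatocytes. Mice of the HFD + Inhib group ate the high-fat diet, were gavaged with the KHK inhibitor PF-06835919 (15 mg/kg, 2 doses a day) and were given the control siRNA (10 mg/kg). The inhibitor was systemic, and the design asks whether removing KHK and inhibiting its kinase activity act alike in liver. The methods state that mice were given saline or insulin shortly before the liver was taken, and which of these the 16 mice received is not given in the sources used here. Library totals ran from 24317111 to 35820234 expected counts.

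KHK phosphorylates fructose, and fructose feeding has been linked to ER stress in liver. When unfolded proteins collect in the ER, the sensor IRE1 (gene Ern1) splices Xbp1 mRNA, ATF6 is cleaved, and PERK (gene Eif2ak3) phosphorylates the initiation factor eIF2. The first 2 of these sensors raise chaperones, foldases and the ERAD machinery that returns misfolded proteins to the cytosol. Phosphorylated eIF2 lowers general translation and raises translation of ATF4, which other eIF2 kinases also do during amino acid shortage or other stress. The hepatocyte secretes most plasma proteins, and so carries a large ER. Splicing, cleavage and phosphorylation were not measured, and counts per gene do not separate the 2 forms of Xbp1. In whole liver, fewer cells of a type and less RNA per cell cannot be told apart.

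The promoters of the 2 target groups carry different short sequences, which are shown because the report compares those groups. The sequences are from RefSeq on GRCm38.p6, an older build than the mm39 of the counts, and cover the 250 bases before each start and the 50 after it. Both strands were searched, and 34 of the 38 genes had an entry. The ER stress element (ERSE) was taken as CCAAT and CCACG with 9 bases between them. It was present in 9 of 17 chaperone and ERAD genes (52.9%), in 0 of 4 sensors and factors, in 0 of 13 ATF4 targets and in 0.119% of all 32851 promoters. Of the 37 gene symbols whose promoter held it, 9 were in the list (24.3%). The C/EBP-ATF response element (CARE) was taken as TGATG, 1 base of any kind and AA. It was present in 5 of 13 ATF4 targets (38.5%), in 1 of 17 chaperone and ERAD genes (5.88%), namely Herpud1, and in 3.97% of all promoters. The unfolded protein response element, TGACG followed directly by TGG, was in 0 of the 34 genes and in 0.676% of all promoters. Its reverse complement contains CCACG, as ERSE does. A second form, ERSE-II, taken as ATTGG, 1 base and CCACG, was chosen with the data in view. It was in Dnajb11 and Herpud1 and in 0.0365% of all promoters. A match in these letters is a description and not a shown binding site. The lines below give, for chaperone and ERAD genes, the strand on which ERSE reads CCAAT first, with CCAAT and CCACG in capitals.
Hspa5, chr2:34772020-34772048, plus strand: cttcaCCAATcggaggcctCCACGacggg
Calr, chr8:84847070-84847098, plus strand: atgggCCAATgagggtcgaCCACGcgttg
Canx, chr11:50325795-50325823, minus strand: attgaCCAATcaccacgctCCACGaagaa
Pdia6, chr12:17266486-17266514, plus strand: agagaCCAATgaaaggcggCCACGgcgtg
Creld2, chr15:88819515-88819543, minus strand: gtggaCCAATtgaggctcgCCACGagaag
Syvn1, chr19:6046527-6046555, plus strand: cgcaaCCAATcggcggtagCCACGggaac
Derl3, chr10:75893237-75893265, minus strand: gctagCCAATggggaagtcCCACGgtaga
Each of these lies upstream of the start, with 25 bases between element and start in Syvn1, 46 in Hspa5 and 143 in Calr. Hsp90b1 and Dnajc3 held the element as well. It was not found in Pdia3, Pdia4, Dnajb9, Dnajb11, Sdf2l1, Sel1l, Herpud1 or Edem1, and Manf, Hyou1, Derl1 and Atf6 were not searched. The next lines give CARE in 4 genes, with its fixed bases in capitals.
Chac1, chr2:119351038-119351067, minus strand: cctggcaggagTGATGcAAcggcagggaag
Asns, chr6:7693214-7693243, minus strand: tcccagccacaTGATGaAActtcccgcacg
Atf3, chr1:191183425-191183454, plus strand: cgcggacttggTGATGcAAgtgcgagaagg
Herpud1, chr8:94386306-94386335, minus strand: ggggtgcgggcTGATGcAAcccgccgtggt
Nupr1 and Trib3 held it as well, in Trib3 past the start.

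Levels are given in CPM, counts scaled to the library total and then between libraries by edgeR's TMM factors, with the mean ± SD of 4 mice. Unless another fit is named, each adjusted p is a Benjamini-Hochberg value over 18335 genes from edgeR's quasi-likelihood test. A gene was called at an adjusted p under 0.05. The siRNA's own target was examined first. Khk was 214, 233, 349 and 269 CPM in the LFD mice and 251, 322, 233 and 251 CPM in the HFD mice. In the HFD + siRNA mice it was 11.8, 9.14, 18.1 and 11.5 CPM, and in the HFD + Inhib mice 112, 152, 94.6 and 120 CPM. The siRNA group lay below all other mice and the inhibitor group between. Khk was 20.9-fold lower in HFD + siRNA than in HFD (log2 fold change -4.38 ± 0.23 SE, adjusted p = 1.88e-08) and 2.21-fold lower in HFD + Inhib than in HFD (-1.14 ± 0.20, adjusted p = 0.000752).

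**Figure D1:**
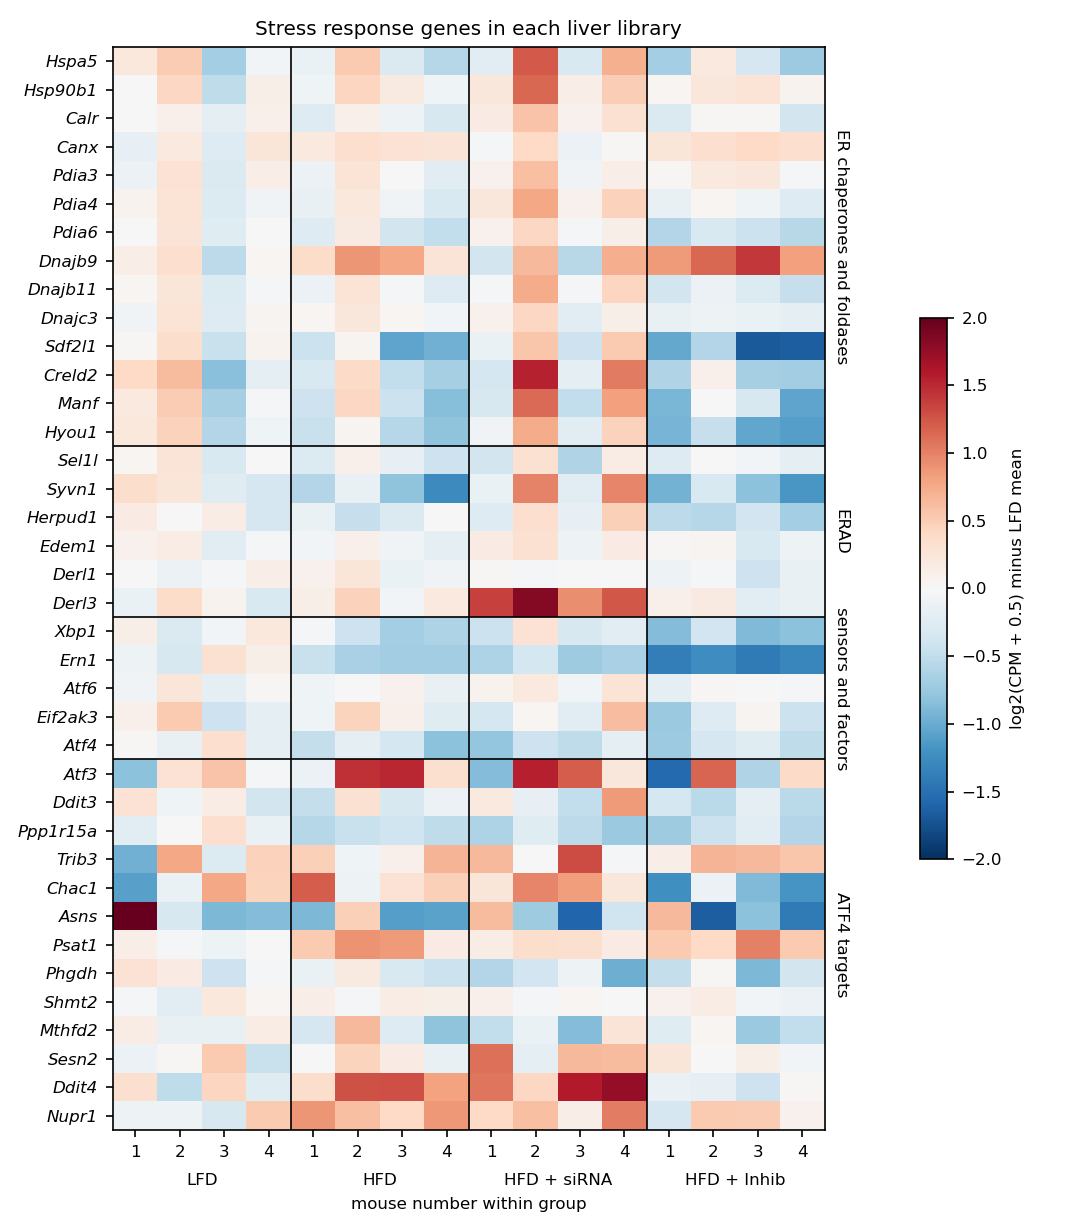
Level of each of the 38 genes (rows, by role) in each of the 16 libraries (columns, by group and mouse number), as log2(CPM + 0.5) minus the mean of the 4 LFD mice. Colours stop at 2 on this log2 scale, which 1 value exceeds. HFD + siRNA mice 2 and 4 are red across most chaperone and ERAD genes, Derl3 is red in all 4 HFD + siRNA mice, and Ern1 is bluer in all 4 HFD + Inhib mice than in any HFD mouse.

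The high-fat diet alone was compared first, since the treatments were given on top of it. None of the 20 chaperone and ERAD genes was called between HFD and LFD by DESeq2 or by edgeR fitted on groups alone, with 2 of 20 at an unadjusted p under 0.05. Over all genes 18.4% were called, 9.58% higher and 8.8% lower in HFD. The log2 fold changes of these 20 genes ran from -0.68 to 0.57 with a median of -0.10, beside -0.01 for all tested genes. The level of these 20 genes varied between mice of the same group. Log2 CPM averaged over the 20 genes, minus the LFD mean, ran from -0.33 to 0.30 in LFD mice. In HFD mice it ran from -0.34 to 0.24, and mouse 2 was the highest in both groups. Of the 13 ATF4 targets, 2 were higher and 1 was lower in HFD, with a median of 0.10, which was 0.30 with offsets for GC content and length. Among the sensors and factors, Ern1 was lower.

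Ern1 was 117, 100, 155 and 137 CPM in the LFD mice. In the HFD mice it was 91.7, 80.3, 77.4 and 77.5 CPM, below every LFD mouse. Ern1 was 1.56-fold lower in HFD (-0.64 ± 0.12, adjusted p = 0.00212). Atf4 itself averaged 72.5 ± 12.6 CPM in LFD mice and 52.8 ± 9.46 CPM in HFD mice and was not called (-0.46 ± 0.16, adjusted p = 0.0527). DESeq2 did call it, at an adjusted p of 0.0313. Xbp1 was at 152 ± 22.5 and 113 ± 23.9 CPM and was not called (-0.43 ± 0.17, adjusted p = 0.0993).

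Ddit4, an inhibitor of mTORC1 signalling, was 6.16, 3.22, 6.66 and 4.02 CPM in LFD mice, against 6.26, 12.4, 12.5 and 8.80 CPM on the high-fat diet. The groups overlapped at HFD mouse 1. Ddit4 was 1.99-fold higher in HFD (0.99 ± 0.30, adjusted p = 0.0283). The call was lost without LFD mouse 2 or 4 or HFD mouse 2 or 3, with adjusted p up to 0.0884, and with the mice numbered 2 left out of all groups (adjusted p = 0.0889). Ppp1r15a encodes GADD34, which helps to remove the phosphate from eIF2. It was 10.4, 12.1, 15.3 and 10.9 CPM in LFD mice and 7.95, 8.76, 8.99 and 8.37 CPM with HFD, with no overlap, and was 1.43-fold lower (-0.52 ± 0.14, adjusted p = 0.0198). A fit with offsets for GC content and length left Ppp1r15a uncalled (-0.39, adjusted p = 0.101), as did leaving out LFD mouse 3 or HFD mouse 1 or 4 (adjusted p up to 0.0866). Shmt2, a mitochondrial folate enzyme that was not called, was higher in HFD with those offsets (0.28, adjusted p = 0.0289). Psat1, an enzyme of serine synthesis, was 0.335, 0.251, 0.209 and 0.264 CPM in LFD mice, and 0.597, 0.925, 0.872 and 0.352 CPM in HFD mice, also without overlap. It was 2.62-fold higher (1.39 ± 0.34, adjusted p = 0.0106), on 7 to 8 counts per LFD library and 9 to 36 per HFD library. With the mice numbered 2 left out of all groups its adjusted p was 0.0639. Nupr1, a stress-induced nuclear protein, averaged 0.328 ± 0.226 and 0.815 ± 0.207 CPM and was not called (1.30 ± 0.48, adjusted p = 0.0712), while DESeq2 called it (adjusted p = 0.0472).

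Knockdown of KHK on the high-fat diet was compared with HFD alone. Chaperone and ERAD genes were higher with the siRNA where they were called. Calr, Syvn1 and Derl3 rose, 3 of 20, beside 5.2% of all genes higher and 6.55% lower (11.7% called). Of the 20 genes, 17 had a positive log2 fold change, and their median was 0.39 beside 0.02 for all tested genes. It was 0.21 without siRNA mouse 2. None of the 13 ATF4 targets was called by edgeR or by DESeq2, with 2 of 13 at an unadjusted p under 0.05 and a median of -0.04, which was -0.13 with offsets for GC content and length. None of the 5 sensors and factors was called in edgeR or DESeq2, and 0 had an unadjusted p under 0.05. With the same offsets, Atf6 was called higher (0.34, adjusted p = 0.0142, beside 0.16 without them), as was the Hsp90 of the ER, Hsp90b1 (0.56, adjusted p = 0.04).

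Derl3, a derlin of the channel through which ERAD substrates leave the ER, was 0.795, 1.13, 0.645 and 0.860 CPM in HFD mice. With the siRNA it was 2.56, 3.75, 1.78 and 2.31 CPM. All 4 siRNA mice lay above all HFD mice. Derl3 was 2.99-fold higher (1.58 ± 0.28, adjusted p = 0.00259), on 17 to 44 counts per HFD library and 51 to 103 per HFD + siRNA library. The LFD mice averaged 0.709 ± 0.249 CPM. Derl3 is also known from other secretory cells, such as plasma cells and pancreas acinar cells. The plasma cell genes Mzb1 and Tnfrsf17 reached at most 9 counts and 1 count in any library. The 9 plasma and B cell markers, led by Ighm, summed to a median of 8.47 CPM with the siRNA, 14.3 in HFD, 10.7 in LFD and 8.44 with the inhibitor. The 8 pancreas acinar markers summed to 26.5, 15.4, 10.5 and 5.52 CPM in that order. Most of this was Cela1, at 24.4 ± 5.03 CPM with the siRNA, 15.5 ± 2.66 in HFD, 9.79 ± 1.64 in LFD and 5.24 ± 1.17 with the inhibitor. Cela1 was thus also highest with the siRNA. HFD mouse 2 stood apart for the plasma and B cell markers, at 33.8 CPM beside 12.5 to 14.8 CPM in the other HFD mice. No marker of either list was at 0 in every library, but of the 8 acinar markers only Cela1 passed the filter on low counts. The part of plasma, B or acinar cells in Derl3 was not tested.

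Syvn1 encodes HRD1, the ubiquitin ligase of ERAD. It was 54.4, 74.1, 47.0 and 33.7 CPM in HFD mice and 75.1, 165, 70.8 and 162 CPM with the siRNA. The siRNA mice 2 and 4 were far above the other 2, of which mouse 3 lay below the highest HFD mouse. Syvn1 was 2.26-fold higher (1.18 ± 0.30, adjusted p = 0.019), and the call was lost when HFD mouse 3 or 4 or siRNA mouse 2 or 4 was left out. Calr, a lectin chaperone for glycoproteins, was 482, 620, 539 and 462 CPM in HFD mice and 646, 852, 611 and 708 CPM with the siRNA. The groups overlapped, and Calr was 1.34-fold higher (0.42 ± 0.13, adjusted p = 0.0478). It was not called with the GC and length offsets (0.33, adjusted p = 0.0985), nor when any 1 of 7 of the 8 mice was left out. The count of called genes among the 20 was 1 without HFD mouse 3, without HFD mouse 4, without siRNA mouse 2 or without siRNA mouse 4, and 7 without HFD mouse 2. Over all genes, calls in such fits are given below as a range and not for each mouse, so these counts have no share of their own fit beside them. Without siRNA mouse 2, 1 ATF4 target, Sesn2, was called.

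Hspa5 encodes BiP, the main Hsp70 chaperone of the ER, and was singled out after its values had been seen. It was 559, 878, 499 and 413 CPM in HFD mice and 523, 1433, 495 and 1004 CPM with the siRNA. The siRNA mice 2 and 4 exceeded every HFD mouse and the other 2 lay among them. Hspa5 was not called (0.56 ± 0.34, adjusted p = 0.315). The same 2 mice were the highest of the siRNA group for Creld2 and Manf, which were also picked with their values in view. Creld2 was at 59.7 and 42.0 CPM in them beside 15.7 and 17.4 CPM, and Manf at 122 and 97.6 CPM beside 44.2 and 39.1 CPM. Neither Creld2 (0.96 ± 0.40, adjusted p = 0.135) nor Manf (0.70 ± 0.37, adjusted p = 0.237) was called. Hyou1 (0.69 ± 0.25, adjusted p = 0.0807) and Pdia4 (0.47 ± 0.15, adjusted p = 0.0506) were not called here, and DESeq2 called both.

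**Figure D2:**
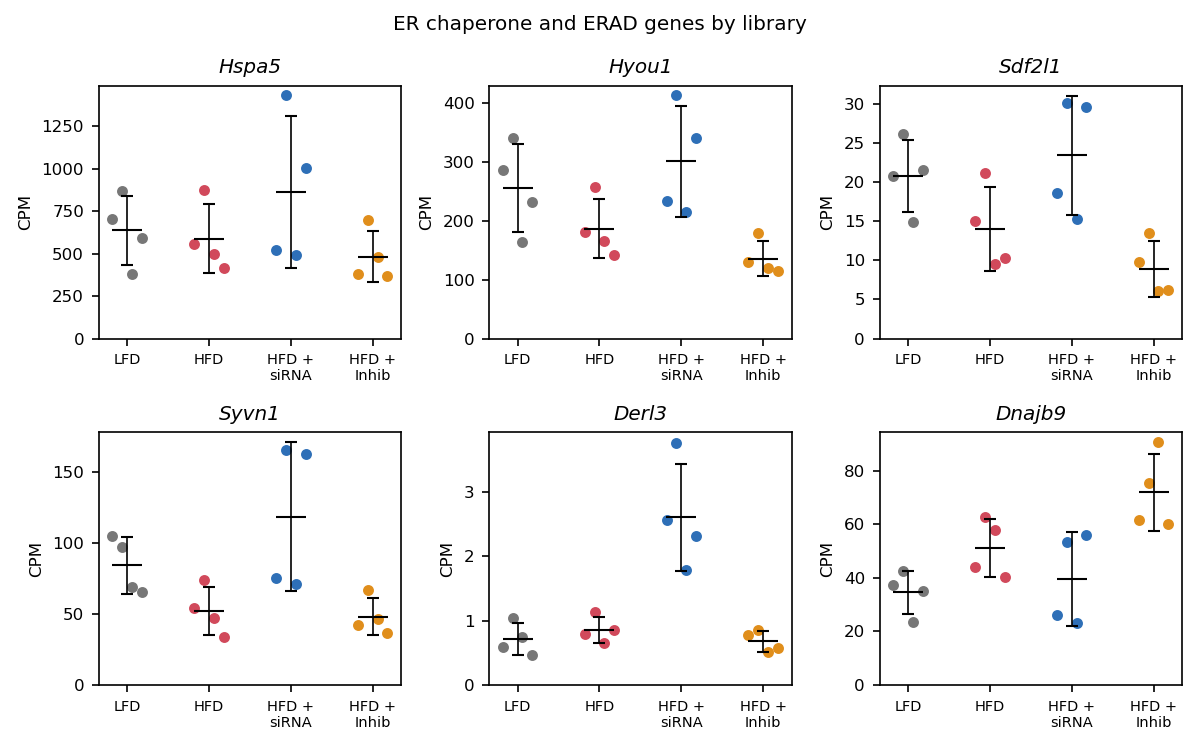
CPM of 6 chaperone and ERAD genes in each mouse of the 4 groups (points, mouse 1 to 4 from left to right), with the mean (line) and SD (bars). Derl3 is above all other mice in the 4 HFD + siRNA mice, while Hspa5 and Syvn1 are high in 2 of the 4, and the mean of Dnajb9 is highest in HFD + Inhib.

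The KHK inhibitor was compared with HFD alone in the same way. None of the 20 chaperone and ERAD genes was called by DESeq2 or by edgeR fitted on groups alone, with 2 of 20 at an unadjusted p under 0.05, while 18.2% of all genes were called, 9.8% higher and 8.42% lower. The log2 fold changes ran from -0.67 for Sdf2l1 to 0.49 for Dnajb9, with 15 of 20 negative and a median of -0.21. Without HFD mouse 2 this median was 0.034. The hepatocyte markers summed to 73727 CPM in that mouse, beside 88787 to 91264 CPM in the other HFD mice, and the T and NK cell markers to 6.78 CPM beside 1.97 to 3.83 CPM. Their part in the median was not tested. Ern1 and the ATF4 targets Chac1 and Ddit4 fell. These 3 were all the members called, and none rose. The median of the 13 ATF4 targets was -0.31, beside -0.00 for all tested genes. It was -0.51 without inhibitor mouse 1 and -0.075 with the mice numbered 2 left out of all groups.

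Ern1 was 47.9, 52.6, 47.0 and 50.7 CPM in HFD + Inhib, below all 4 HFD mice at 77.4 to 91.7 CPM. It was 1.65-fold lower (-0.72 ± 0.12, adjusted p = 0.000451). The substrate of IRE1, Xbp1, was at 91.7 ± 16.3 CPM in HFD + Inhib and 113 ± 23.9 CPM in HFD and was not called (-0.30 ± 0.17, adjusted p = 0.259). Eif2ak3 (-0.41 ± 0.24), Atf6 (-0.01 ± 0.10) and Atf4 (-0.00 ± 0.16) were not called either. Atf4 was at 52.7 ± 7.58 CPM in HFD + Inhib and 52.8 ± 9.46 CPM in HFD.

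Ddit4 was 4.38, 4.27, 3.50 and 4.92 CPM in HFD + Inhib and did not overlap with the HFD mice at 6.26 to 12.5 CPM. It was 2.34-fold lower (-1.22 ± 0.30, adjusted p = 0.00856), at a mean of 4.27 ± 0.586 CPM beside 5.02 ± 1.66 CPM in LFD. Chac1, which degrades glutathione, was 0.565, 1.79, 0.842 and 0.600 CPM in HFD + Inhib and 5.27, 1.82, 2.54 and 2.97 CPM in HFD. The groups did not overlap, but mouse 2 of each lay close to the other. Chac1 was 3.35-fold lower (-1.75 ± 0.48, adjusted p = 0.0172), on 16 to 46 counts per HFD + Inhib library. The call was lost without HFD mouse 1 or without inhibitor mouse 1 or 4, which leaves 1 called ATF4 target. The other 11 ATF4 targets were not called. Trib3, a pseudokinase that binds Akt, was 6.65 ± 1.17 CPM with the inhibitor and 5.75 ± 1.51 CPM in HFD (0.21 ± 0.36), and Ddit3, which encodes CHOP, was 4.25 ± 0.566 and 5.28 ± 1.43 CPM (-0.31 ± 0.27).

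**Figure D3:**
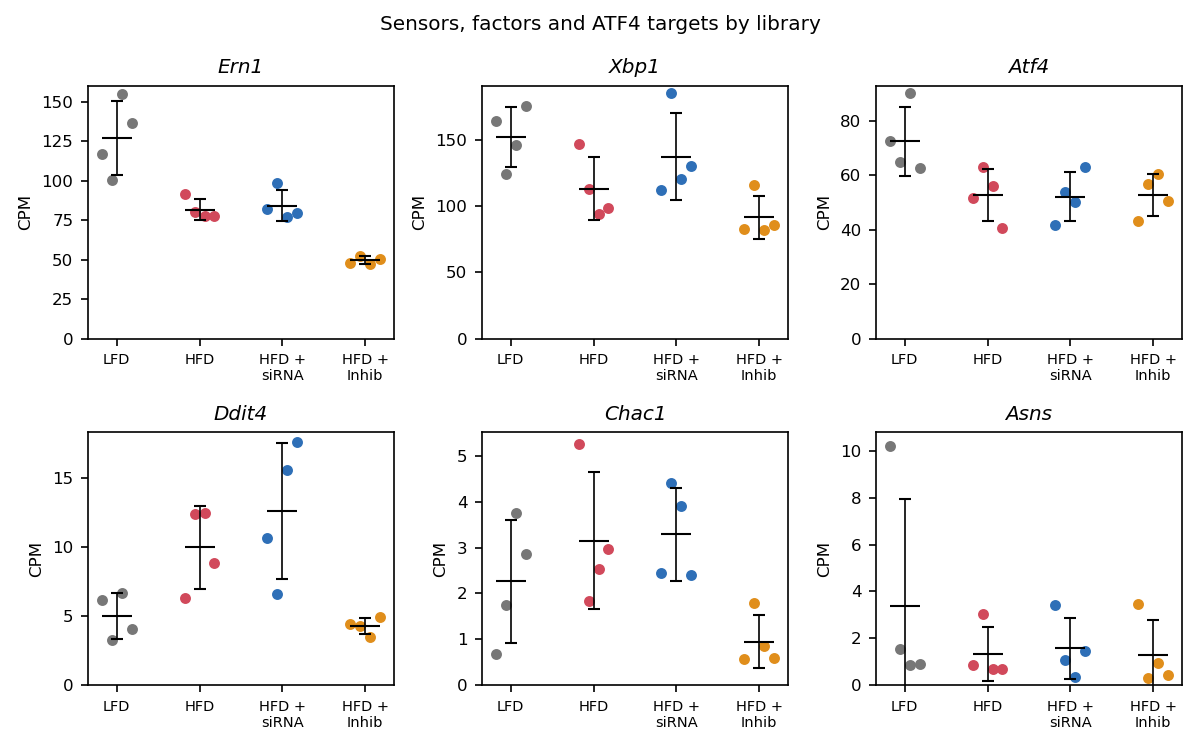
CPM of 3 sensors and factors and 3 ATF4 targets in each mouse of the 4 groups (points, mouse 1 to 4 from left to right), with the mean (line) and SD (bars). Ern1 and Ddit4 are lower in all 4 HFD + Inhib mice than in all 4 HFD mice, and Asns is high in single mice. Axes start at 0, where SD bars are cut off.

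The direct comparison of inhibitor with siRNA gave the most called members. Over all genes 33.8% were called in it, 17.3% higher and 16.6% lower with the inhibitor, so calls were common. Of the 20 chaperone and ERAD genes, 11 were called, with 10 lower in HFD + Inhib and 1 higher. Of the 13 ATF4 targets, 2 were called and both were lower. The median log2 fold change was -0.57 for the chaperone and ERAD genes and -0.29 for the ATF4 targets, beside -0.04 for all tested genes. The second median moved from -0.51 without siRNA mouse 3 to -0.079 without inhibitor mouse 4. The groups of genes differed in precision, since the ATF4 targets had a median of 109 counts per library and a median SE of 0.36 on the log2 scale, beside 5571 counts and 0.17 for the chaperone and ERAD genes. Both comparisons with HFD share the HFD mice, so the 2 treatments are compared directly here, with values per mouse for some of the genes.

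Among the chaperones, the called genes were Hyou1, Sdf2l1, Pdia6, Dnajb11, Pdia4, Calr and Creld2, all lower, and Dnajb9, higher. Hyou1, an Hsp110-type partner of BiP, was 130, 179, 120 and 114 CPM with the inhibitor and 234, 414, 214 and 341 CPM with the siRNA. The groups did not overlap, and Hyou1 was 2.21-fold lower with the inhibitor (-1.15 ± 0.25, adjusted p = 0.00223). Sdf2l1, which works with BiP and its J-domain partners, was 9.86, 13.5, 6.02 and 6.21 CPM against 18.7, 30.2, 15.3 and 29.7 CPM, also without overlap. It was 2.64-fold lower (-1.40 ± 0.31, adjusted p = 0.00229), and its HFD and LFD means of 14.0 ± 5.35 and 20.9 ± 4.62 CPM lay between those of the treated groups.

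Pdia6, a protein disulfide isomerase, was 106, 129, 118 and 108 CPM with the inhibitor and 170, 212, 157 and 172 CPM with the siRNA. It was 1.54-fold lower (-0.62 ± 0.14, adjusted p = 0.00308) with no overlap. Its relative Pdia4 (-0.52 ± 0.15, adjusted p = 0.0138) and the BiP cochaperone Dnajb11 (-0.62 ± 0.17, adjusted p = 0.00877) were also lower. Pdia4 was not called without siRNA mouse 2 (adjusted p = 0.0616). Calr was lower too (-0.43 ± 0.13, adjusted p = 0.0182), but not called without siRNA mouse 2 or without inhibitor mouse 1 or 4 (adjusted p up to 0.0786). Creld2, another disulfide isomerase, overlapped between the groups (-1.18 ± 0.41, adjusted p = 0.0328) and lost its call with the GC and length offsets (adjusted p = 0.0731) and when siRNA mouse 2 or 4 or inhibitor mouse 1, 3 or 4 was left out (adjusted p up to 0.150). Hspa5 was 380, 696, 482 and 369 CPM with the inhibitor, and its difference from the siRNA group was not called (-0.84 ± 0.34, adjusted p = 0.0671). It was called with the GC and length offsets (-1.01, adjusted p = 0.0298), as were Hsp90b1 (-0.68, adjusted p = 0.00614), Dnajc3 (-0.50, adjusted p = 0.00155) and the ERAD gene Edem1 (-0.42, adjusted p = 0.00501).

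Dnajb9 encodes ERdj4, a J-domain cochaperone that holds IRE1 inactive with BiP. It was 61.4, 75.3, 90.8 and 59.9 CPM with the inhibitor and 26.1, 53.3, 23.0 and 56.0 CPM with the siRNA. All inhibitor mice lay above all siRNA mice, though the 2 highest siRNA mice were close. Dnajb9 was 1.81-fold higher (0.86 ± 0.27, adjusted p = 0.0204) and averaged 51.2 ± 10.7 CPM in HFD mice and 34.6 ± 8.12 CPM in LFD mice. The call was lost without siRNA mouse 1 or 3, without inhibitor mouse 3 and with the GC and length offsets (0.66, adjusted p = 0.0537), with adjusted p up to 0.0682. Canx, the membrane-bound relative of Calr, was the other chaperone with a positive value and was not called (0.25 ± 0.12, adjusted p = 0.132). Its value turned negative with the offsets (-0.11, adjusted p = 0.318), and without siRNA mouse 2 it was called higher. Pdia3 (-0.10 ± 0.15), which works with Calr and Canx, was not called.

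Among the ERAD genes Derl3, Syvn1 and Herpud1 were lower with the inhibitor, and Sel1l, Edem1 and Derl1 were not called. Derl3 was 0.777, 0.855, 0.518 and 0.570 CPM with the inhibitor, below the 1.78 to 3.75 CPM of the siRNA mice. It was 3.83-fold lower (-1.94 ± 0.29, adjusted p = 0.000104). Syvn1 was 42.4, 66.8, 46.4 and 36.5 CPM with the inhibitor, below all siRNA mice, of which the lowest was at 70.8 CPM. It was 2.46-fold lower (-1.30 ± 0.30, adjusted p = 0.00341). Herpud1, a membrane protein that helps to assemble the HRD1 complex, was 186, 180, 204 and 167 CPM against 222, 335, 238 and 372 CPM. It was 1.59-fold lower without overlap (-0.67 ± 0.16, adjusted p = 0.00444). Sel1l, which binds and stabilizes HRD1, was at 164 ± 12.6 and 169 ± 48.5 CPM (-0.04 ± 0.17).

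Ern1 was 81.8, 98.7, 76.8 and 79.6 CPM in HFD + siRNA, above all 4 inhibitor mice at 47.0 to 52.6 CPM. It was 1.70-fold lower with the inhibitor (-0.77 ± 0.12, adjusted p = 0.000155). The siRNA mean of 84.2 ± 9.85 CPM and the HFD mean of 81.7 ± 6.80 CPM gave no call (0.04 ± 0.12). Xbp1 was 83.0, 116, 82.1 and 85.6 CPM with the inhibitor and 112, 185, 120 and 131 CPM with the siRNA. The groups overlapped at inhibitor mouse 2, and Xbp1 was 1.50-fold lower (-0.58 ± 0.18, adjusted p = 0.0173), a call that was lost without siRNA mouse 2 or without inhibitor mouse 1 or 3 (adjusted p up to 0.0787). Atf4 was at 52.1 ± 8.94 CPM with the siRNA and was not called against the inhibitor (0.01 ± 0.16). Atf6 was not called either, and was lower with the inhibitor when the GC and length offsets were used (-0.39, adjusted p = 0.00195).

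Among the ATF4 targets Ddit4 was 10.6, 6.59, 15.6 and 17.6 CPM in HFD + siRNA, and all 4 lay above the inhibitor mice. It was 2.95-fold lower with the inhibitor (-1.56 ± 0.30, adjusted p = 0.000876). Chac1 was 2.44, 4.41, 3.91 and 2.40 CPM in HFD + siRNA, also above the inhibitor mice, and was 3.50-fold lower with the inhibitor (-1.81 ± 0.48, adjusted p = 0.00819). The other 11 were not called. Ddit3 (-0.65 ± 0.26, adjusted p = 0.0697), the leucine sensor Sesn2 (-0.57 ± 0.24, adjusted p = 0.0763) and Psat1 (0.76 ± 0.32, adjusted p = 0.0758) came nearest. Shmt2 and Mthfd2, mitochondrial enzymes of folate metabolism, had log2 fold changes of -0.00 ± 0.09 and -0.16 ± 0.46. With the GC and length offsets Shmt2 was called higher (0.23, adjusted p = 0.045), which made 3 called ATF4 targets, 1 higher and 2 lower. Atf3 (-0.71 ± 0.65), a repressor of the same family as ATF4, ranged from 0.459 to 5.83 CPM within the inhibitor group. Psat1, Phgdh, Mthfd2 and Nupr1 had under 50 counts per library on average, and 47.8% of the 50-base words of Phgdh transcripts also occur in 20 other genes, so the division of its reads is uncertain. Exons of some members overlap a gene on the opposite strand in GENCODE M21, by 485 bases for Eif2ak3, 415 for Hsp90b1, 166 for Manf and 91 for Syvn1. Whether counting used strand is not given in the sources used here.

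**Figure D4:**
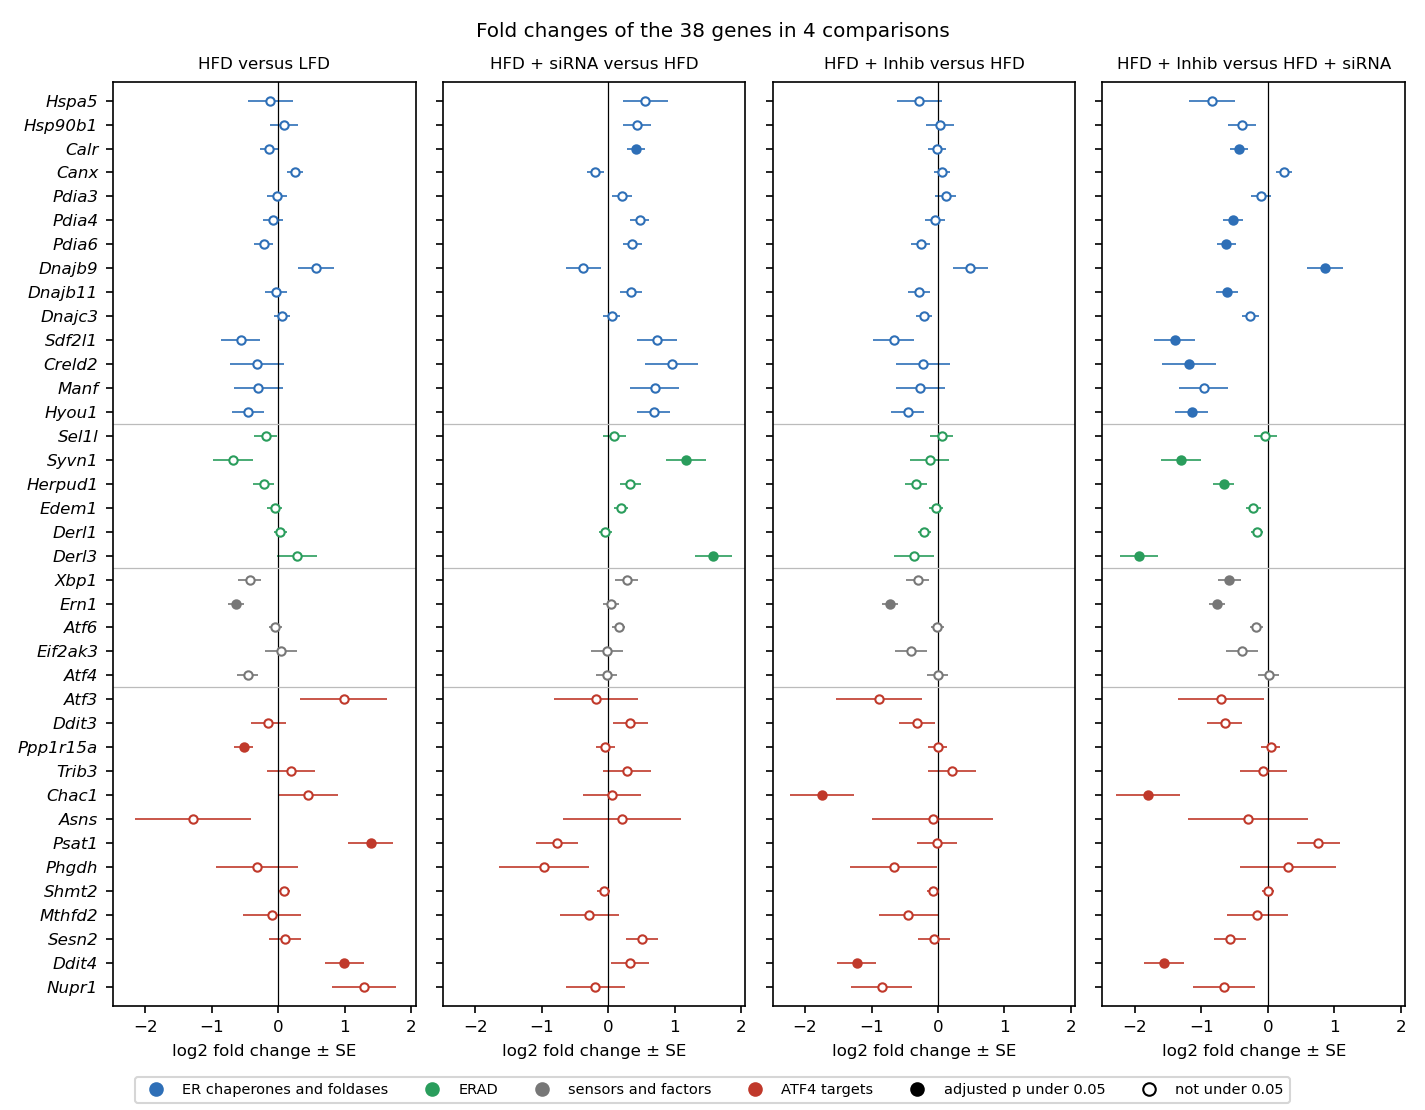
Log2 fold change with its standard error for each of the 38 genes in the 4 comparisons, coloured by role, with filled points for an adjusted p under 0.05. The 20 chaperone and ERAD genes lie mostly to the right of 0 for HFD + siRNA versus HFD and to the left for HFD + Inhib versus HFD + siRNA, and the ATF4 targets have the longer bars.

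The spread within groups was shared by most chaperone and ERAD genes. The mouse numbered 2 had the highest level of its group in 15 of the 20 genes among LFD mice, 19 among HFD mice, 17 with the siRNA and 14 with the inhibitor. For the 13 ATF4 targets the same counts were 1, 6, 4 and 7. The log2 CPM averaged over the 20 genes, minus its LFD mean, was -0.11 ± 0.25 (SD, n = 4) for the HFD group, 0.29 ± 0.40 for the siRNA group and -0.24 ± 0.18 for the inhibitor group, with an SD of 0.26 in LFD. The same average of the 13 ATF4 targets was 0.26 ± 0.24, 0.18 ± 0.03 and -0.23 ± 0.18. HFD mouse 2 had the highest ATF4 target mean, 0.60, and siRNA mice 2 and 4 had the highest chaperone and ERAD means, 0.76 and 0.49. With all 4 mice numbered 2 left out, an alternative chosen with the data in view, 12 of the 20 were called between inhibitor and siRNA (10 lower and 2 higher) and 4 between siRNA and HFD, all higher. Of all 18511 genes in that fit, 3035 were lower and 3200 higher between inhibitor and siRNA, and 660 were higher and 1069 lower between siRNA and HFD. Of the ATF4 targets, 1, 1, 2 and 3 were then called in HFD versus LFD, siRNA versus HFD, inhibitor versus HFD and inhibitor versus siRNA. Counts over all genes in that fit are not given here for HFD versus LFD and inhibitor versus HFD, so the ATF4 target counts there have no share beside them.

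**Figure D5:**
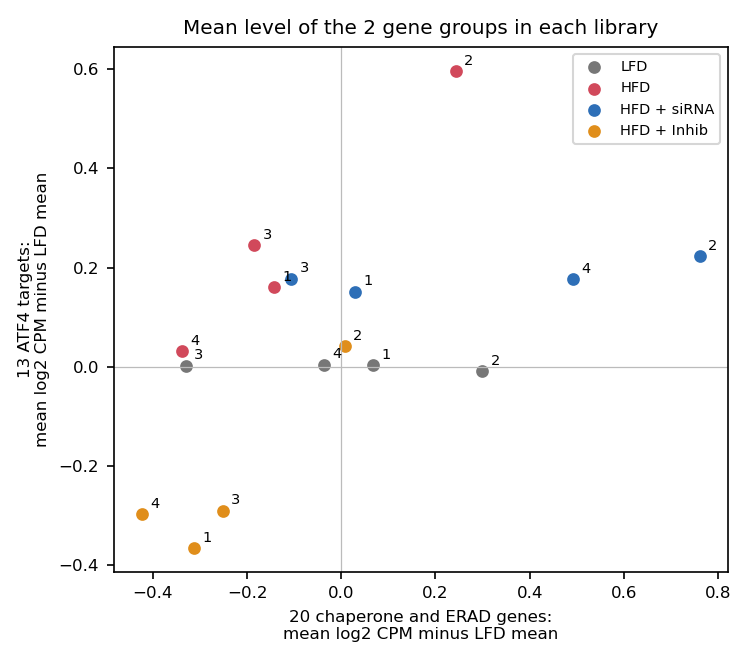
Mean log2 CPM of the 13 ATF4 targets (vertical) against that of the 20 chaperone and ERAD genes (horizontal) in each mouse, both minus the LFD mean, with mouse numbers beside the points. HFD + siRNA mice 2 and 4 lie to the right, and HFD + Inhib mice 1, 3 and 4 lie at the lower left.

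Promoters with and without ERSE were set side by side as a description. Between inhibitor and siRNA, 5 of the 9 chaperone and ERAD genes with ERSE were lower and 0 higher, with a median log2 fold change of -0.62, beside 16.6% lower and 17.3% higher over all genes. Of the 8 without it 4 were lower and 1, Dnajb9, was higher, with a median of -0.37. Dnajb11 and Herpud1, among those 4 lower genes, held the second form, ERSE-II. Of the 3 that were not searched 1, Hyou1, was lower and 0 higher, with a median of -0.97. Between siRNA and HFD the 3 called genes, beside 5.2% of all genes higher, held ERSE. DESeq2 also called Pdia4, which lacks it, and Hyou1, which was not searched, and without HFD mouse 2 Sdf2l1, which lacks it, and Pdia6, which holds it, were called as well. Canx held it and was not called in the fit of all mice in any of the 4 comparisons. Chac1 held CARE and Ddit4 did not.

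Other genes of the same pathways were taken from further lists. For all the lists that follow, the shares over all genes were 9.58% higher and 8.8% lower with HFD, 5.2% and 6.55% with the siRNA, 9.8% and 8.42% with the inhibitor against HFD, and 17.3% and 16.6% against the siRNA. Of 40 other genes of ER folding, translocation and redox, 3 were higher and 13 lower in HFD than in LFD, 7 higher and 1 lower in HFD + siRNA than in HFD, 2 higher and 5 lower in HFD + Inhib than in HFD, and 2 higher and 18 lower in HFD + Inhib than in HFD + siRNA. The 2 and 5 of 40 with the inhibitor against HFD stand beside 9.8% and 8.42% of all genes. Median log2 fold changes in that order were -0.24, 0.12, -0.13 and -0.27. The cyclophilin Ppib, picked after its values had been seen, was lower in HFD than in LFD (-0.34, adjusted p = 0.0111), higher with the siRNA (0.32, adjusted p = 0.0209), and lower with the inhibitor than in HFD (-0.47, adjusted p = 0.00087) and than with the siRNA (-0.79, adjusted p = 4.1e-06). Sec61g, of the translocation channel, was lower with the inhibitor than with the siRNA (-1.06 ± 0.40, adjusted p = 0.0497). Of 19 other ERAD genes, 2 were higher and 3 lower with HFD, 3 higher and 1 lower with the siRNA, and 2 higher and 2 lower with the inhibitor against the siRNA, the last beside 17.3% and 16.6% of all genes. None was called in edgeR with the inhibitor against HFD, where 5 had an unadjusted p under 0.05 and DESeq2 called 2. The lectin Os9, also picked after its values had been seen, was lower in HFD (-0.36), higher with the siRNA (0.37) and lower with the inhibitor than with the siRNA (-0.52), and was not called with the inhibitor against HFD (-0.15).

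Of 24 other sensors, regulators and eIF2 kinases, 5 were higher and 2 lower with HFD, 2 and 2 with the siRNA, 1 and 1 with the inhibitor against HFD, and 5 and 5 against the siRNA. Beside these stand 5.2% and 6.55% of all genes with the siRNA and 17.3% and 16.6% for inhibitor against siRNA, and the counts of these 2 comparisons lay near them. Atf5, a relative of ATF4, was 109 CPM with the inhibitor and 272 CPM with the siRNA on average (-1.31 ± 0.20, adjusted p = 0.000146). Of 15 other ATF4 targets of amino acid transport and metabolism, 2 were higher and 2 lower with HFD, 3 and 0 with the siRNA, 1 and 2 with the inhibitor against HFD, and 1 and 4 against the siRNA, beside the same shares. Cbs, of transsulfuration, was 2.40-fold lower with the inhibitor than with the siRNA (-1.26 ± 0.17, adjusted p = 3.59e-05). The transporter gene Slc1a4 was 2.74-fold higher in HFD than in LFD (1.45 ± 0.37) and 2.35-fold lower with the inhibitor than in HFD (-1.23 ± 0.37), and so in the directions of Ddit4. It was also lower with the inhibitor than with the siRNA (-1.65 ± 0.37).

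Of 12 tRNA synthetases, 0 were higher and 1 lower with HFD, 1 and 0 with the siRNA, and 0 and 5 with the inhibitor against the siRNA. None was called in edgeR or DESeq2 with the inhibitor against HFD, with 2 at an unadjusted p under 0.05. Of 11 secreted and signalling ATF4 targets, 2 were higher and 1 lower with HFD, none was called in edgeR or DESeq2 with the siRNA (2 at an unadjusted p under 0.05), 3 were higher and 1 lower with the inhibitor against HFD, and 2 and 1 against the siRNA. The liver hormone gene Fgf21 was 4.78-fold higher in HFD than in LFD (2.26 ± 0.49, adjusted p = 0.00577), at 7.63 ± 3.23 and 1.60 ± 0.993 CPM. Gadd45a was 2.33-fold higher in HFD (1.22 ± 0.32). The inhibitor group was higher than HFD for Vldlr (2.37 ± 0.36) and Gadd45b (2.21 ± 0.41), and higher than the siRNA group for both (1.91 ± 0.35 and 1.79 ± 0.40). Tsc22d3 was lower with the inhibitor than with the siRNA (-1.04 ± 0.24). Genes of these further ATF4 target lists were called in both directions with the inhibitor. Whether ATF4 or another factor moved them was not tested.

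Chaperones outside the ER were counted as well. Of 10 mitochondrial unfolded protein genes, 6 were higher and 0 lower with the inhibitor than in HFD, and 7 and 0 with the inhibitor than with the siRNA, beside 9.8% and 17.3% of all genes higher in these comparisons. With HFD 1 was higher and 2 lower, and with the siRNA 0 were higher and 1 lower. The chaperonin Hspd1 was 611 ± 17.9 CPM with the inhibitor, 331 ± 19.6 in HFD, 302 ± 46.1 with the siRNA and 313 ± 22.7 in LFD. It was 2.02-fold higher with the inhibitor than with the siRNA (1.02 ± 0.10, adjusted p = 2e-06). Its partner Hspe1 was 2.09-fold higher with the inhibitor than in HFD (1.06 ± 0.14, adjusted p = 6.3e-05) and 2.32-fold higher than with the siRNA (1.22 ± 0.14). Of 12 cytosolic heat shock genes, 1 was higher and 1 lower with HFD, and 2 higher and 0 lower with the inhibitor in each comparison, which is 2 of 12 beside the same 9.8% and 17.3% of all genes. With the siRNA none was called in edgeR, 1 in DESeq2, and 3 had an unadjusted p under 0.05. Hspb1 was lower in HFD (-1.35 ± 0.30) and higher with the inhibitor than in HFD (1.96 ± 0.30) and than with the siRNA (1.34 ± 0.29).

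Several other measures moved with the groups, and their part in the results was not tested. Across 3797 genes with a mean log2 CPM of at least 5, log2 fold changes followed the GC content of the transcripts, with Spearman's rho of -0.47 for HFD versus LFD, 0.46 for siRNA versus HFD, -0.21 for inhibitor versus HFD and -0.45 for inhibitor versus siRNA. These are across genes, which are not independent replicates. Median GC content was 49.5% for the chaperones, 51.2% for ERAD, 51.8% for the sensors and factors, 55.3% for the ATF4 targets and 50.3% for tested genes. With the GC and length offsets, the inhibitor and siRNA groups differed in 13 of the 20 chaperone and ERAD genes, all lower with the inhibitor, beside 2465 lower and 2283 higher of the 15858 genes in that fit. The 9 hepatocyte markers, led by Alb, summed to a median of 61444 CPM with the inhibitor, 92137 with the siRNA, 89615 in HFD and 92836 in LFD, with no marker at 0. With the inhibitor 0 were higher and 3 lower than in HFD, and 1 higher and 5 lower than with the siRNA, among them Ttr (-1.18 ± 0.12). With HFD 1 was lower. With the siRNA none was called in edgeR, 1 in DESeq2, and 2 had an unadjusted p under 0.05.

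The 10 macrophage markers, led by Clec4f, summed to a median of 252 CPM with the inhibitor, 388 with the siRNA, 325 in HFD and 314 in LFD, with no marker at 0. With the inhibitor 2 were lower than in HFD and 7 lower than with the siRNA. With HFD and with the siRNA none was called in edgeR or DESeq2, with 2 and 3 at an unadjusted p under 0.05. The 8 stellate cell markers, led by Reln, had 2 lower with the inhibitor in each comparison and 1 higher with HFD, at median sums of 324 CPM with the inhibitor, 458 with the siRNA, 411 in HFD and 343 in LFD. With the siRNA none was called in edgeR or DESeq2, and 0 had an unadjusted p under 0.05. Of 6 endothelial markers, led by Stab2 and summing to medians of 288 to 345 CPM, Lyve1 was higher with the inhibitor (1.34 ± 0.27 against the siRNA) in both comparisons and 1 was lower than with the siRNA. None was called in edgeR or DESeq2 with HFD or with the siRNA, with 3 and 2 at an unadjusted p under 0.05. The 6 cholangiocyte markers, led by Spp1 and summing to medians of 29.7 to 41.4 CPM, had Cftr higher with the inhibitor than with the siRNA (1.38 ± 0.47) and 1 higher with HFD. In their other 2 comparisons none was called in edgeR or DESeq2, with 1 at an unadjusted p under 0.05 with the siRNA and 0 with the inhibitor against HFD. Plasma and B cell and T and NK cell markers summed to medians of at most 14.3 and 3.34 CPM in any group. Ighm was higher in HFD (1.46 ± 0.43) and lower with the siRNA (-1.73 ± 0.43), and Ms4a1 was lower with the inhibitor than in HFD (-2.31 ± 0.44) and than with the siRNA (-1.63 ± 0.45). Trac (-1.55 ± 0.38) and Nkg7 (-1.95 ± 0.56) were lower with the inhibitor than in HFD and Cd3g (-1.27 ± 0.45) than with the siRNA. With HFD and with the siRNA no T or NK cell marker was called in edgeR or DESeq2, with 1 at an unadjusted p under 0.05 in each. Of 3 neutrophil markers tested none was called in edgeR or DESeq2, at median sums of at most 3.39 CPM. At an unadjusted p under 0.05 there were 1, 0, 0 and 2 in the 4 comparisons. Of 8 pancreas acinar markers 1 was tested, Cela1, which was lower with the inhibitor than with the siRNA (-2.22 ± 0.19) and than in HFD (-1.57 ± 0.19). It was also higher in HFD than in LFD and with the siRNA than in HFD.

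Genes that respond to handling, feeding and time of day were also counted, beside 18.4%, 11.7%, 18.2% and 33.8% of all genes called in the 4 comparisons in the order given. Of 14 immediate early genes, 1 was higher and 2 lower with HFD, among them Egr1 (-2.03 ± 0.61), 1 lower with the inhibitor than in HFD, and 4 lower than with the siRNA, among them Nr4a1 (-2.08 ± 0.55), Ier2 (-1.12 ± 0.25) and Junb (-1.10 ± 0.36). With the siRNA none was called in edgeR or DESeq2, with 1 at an unadjusted p under 0.05. Of 7 insulin and feeding responsive genes, Igfbp1 (-1.64 ± 0.47) and Irs2 (-1.07 ± 0.23) were lower with HFD. In the other 3 comparisons none was called in edgeR, with 1, 1 and 0 at an unadjusted p under 0.05, and DESeq2 called 1, 0 and 0. Of 9 clock genes, Npas2 (-1.80 ± 0.55) was lower and Per2 (1.14 ± 0.28) higher with HFD, and Npas2 (-2.40 ± 0.59) and Arntl (-1.37 ± 0.50) were lower with the inhibitor than with the siRNA. With the siRNA or the inhibitor against HFD no clock gene was called in edgeR or DESeq2, with 1 and 0 at an unadjusted p under 0.05. Arntl averaged 27.0 ± 9.14 CPM in LFD, 11.4 ± 4.97 in HFD, 21.7 ± 12.3 with the siRNA and 8.39 ± 6.27 with the inhibitor.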

How the data were processed

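The values deposited by the authors are expected counts, RSEM's estimates for each gene symbol, not scaled between libraries, and 15.1% are not whole numbers. The submitters' processing notes name STAR, RSEM and mm39 without versions. The study's methods name a probe assay (HTG EdgeSeq), and which of the assays gave these values is not settled here. Groups and mouse numbers came from the labels.

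Here the values were rounded, genes with low counts were removed (filterByExpr, minimum count 10, minimum total 15), libraries were scaled by TMM, and 4 comparisons were tested in 1 quasi-likelihood fit of 16 libraries (edgeR 4.0.16, R 4.3.3), at a Benjamini-Hochberg adjusted p under 0.05. The common dispersion was 0.0380. Each SE of a log2 fold change was derived from the test, as its absolute value divided by the square root of the F statistic. Depth was 24317111 to 35820234 expected counts per library. Each p-value sets a difference between groups against the spread between mice. That spread was estimated from all 16 libraries, with information shared across genes. Averages over members used log2 CPM with a prior count of 2. The alternatives were DESeq2 1.42.0, its size factors, other filters, a fit of 2 groups, a replicate block, offsets for GC content and length (15858 genes), each mouse left out, and an adjusted p under 0.01. Scripts were tested on simulated data.

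The members and lists were chosen with earlier results of these data known. Values in every mouse are given for Khk and, per comparison and role, for up to 3 called members with the lowest adjusted p in each direction. Genes of further lists are named where called with a change of at least 1 on the log2 scale, up to 3 per list, comparison and direction. Exceptions are stated. No pair of mice of a group agreed within sampling noise (chi-square per gene at least 19.4).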

Additional observations from a re-analysis of the deposited data

Results flagged for a closer look

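In 164 groups of 4 mice, 6 had a single value whose gap to the others was above Dixon's 95% critical value. Chance alone flags about 1 group in 20. Inhibitor mouse 2 was far above the other 3 of its group for Creld2, at 21.6 CPM beside a next value of 13.1, and for Xbp1, at 116 CPM beside 85.6. For Asns, the asparagine synthetase gene, LFD mouse 1 was at 10.2 CPM beside 1.54, and HFD mouse 2 was at 3.03 CPM beside 0.862. HFD mouse 2 was the lowest of its group for Shmt2, at 163 CPM beside 181. The average log2 CPM of the 13 ATF4 targets was lowest in LFD mouse 2, at -0.00886 relative to the LFD mean beside 0.00217, in a group whose whole range was small. No explanation of these values was tested.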

How the results depend on the processing

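Of the 25 called member results, 14 kept the call in every alternative run, and none reversed. These were Ern1 in 3 comparisons, Derl3 with siRNA versus HFD, Ddit4 with inhibitor versus HFD, and Chac1, Ddit4, Derl3, Dnajb11, Herpud1, Hyou1, Pdia6, Sdf2l1 and Syvn1 with inhibitor versus siRNA. An adjusted p under 0.01 left 1287, 689, 1733 and 3711 genes called in HFD versus LFD, siRNA versus HFD, inhibitor versus HFD and inhibitor versus siRNA. It left 0 ATF4 targets in HFD versus LFD and 1 in inhibitor versus HFD, and 1 chaperone or ERAD gene in siRNA versus HFD and 7 in inhibitor versus siRNA. DESeq2 called 5 chaperone and ERAD genes between siRNA and HFD, with Pdia4 and Hyou1 added to those of edgeR. Its count over all genes is not given here, so the 5 have no share beside them. The median of the ATF4 targets was 0.30 in HFD versus LFD with GC and length offsets, and -0.56 and -0.43 in inhibitor versus siRNA with at least 10 counts in every library (9 genes tested) and with a fit of the 2 groups (12 genes tested). Leaving out mice gave 2001 to 3691 called genes in HFD versus LFD and 1100 to 1981 in siRNA versus HFD. It gave 1 to 7 called chaperone and ERAD genes in siRNA versus HFD, and 1 to 3, 0 to 1 and 1 to 2 called ATF4 targets in the first 3 comparisons. In inhibitor versus HFD the chaperone and ERAD median ran from -0.29 to 0.034 and that of the ATF4 targets from -0.51 to -0.075, and in inhibitor versus siRNA the latter ran from -0.51 to -0.079. The cause of these differences was not tested. Most ATF4 targets rest on fewer counts than the chaperone and ERAD genes, and the effect of depth on calls was not tested.

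Mouse numbers were not taken to pair the samples. Of 24 same-number pairs across groups, 6 had a correlation of deviations over 0.1 (range -0.13 to 0.34), and 4 of 16 mice correlated best with their own number. With a replicate block, chaperone and ERAD calls were 1, 7, 2 and 14 in the 4 comparisons, beside 3299, 2080, 3341 and 6197 of all 18335 genes. The 2 were Sdf2l1 (-0.66, adjusted p = 0.0204) and Hyou1 (-0.45, adjusted p = 0.0494), both lower with the inhibitor than in HFD in edgeR's blocked test. With the block and GC and length offsets they were 8 in siRNA versus HFD, 3 in inhibitor versus HFD and 17 in inhibitor versus siRNA, beside 1764, 3455 and 4779 of 15858 genes. ATF4 target calls in HFD versus LFD were 5 in that fit, with Shmt2 and Nupr1 added. The count over all genes is not given here for HFD versus LFD in that fit, so the 5 have no share beside them. ATF4 target medians were 0.31 in HFD versus LFD and -0.53 in inhibitor versus HFD.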
